A study of Mus musculus with 16 samples.

Results

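The mammary tumor effect shared by MDPs and CDPs was measured as the average difference between 8 arrays from tumor-bearing mice and 8 arrays from tumor-free mice, with the progenitor and the slide in the model. All 16 arrays of the series entered. A gene was counted as moved alike when it passed the test of the average effect (fold change above 1.5 and FDR under 0.05), changed by more than 1.5-fold in the same direction in MDPs and in CDPs, and was not called in the test of the difference between the progenitors. Of 17237 genes tested, 692 moved alike. Of these, 161 genes (0.934% of those tested) were higher and 531 (3.08%) were lower in progenitors from tumor-bearing mice.

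MDPs (macrophage-dendritic cell progenitors) are bone marrow (BM) cells that can still form monocytes, macrophages and dendritic cells (DCs), and CDPs (common dendritic cell progenitors) are their descendants, which form plasmacytoid DCs (pDCs) and conventional DCs (cDCs). Granulocytes arise from neighboring myeloid progenitors under transcription factors of the C/EBP family and signals such as granulocyte colony-stimulating factor, which acts through STAT3. Their granule proteins are made in waves, the primary granules first and the secondary and tertiary granules later. Type I interferon acts through a factor that holds STAT2 and IRF9, on an element in many promoters, and keeps a set of antiviral genes active at a low level in resting hematopoietic cells.

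All mice were female C57/Bl6. The 4 groups were MDPs from tumor-free mice, MDPs from tumor-bearing mice, CDPs from tumor-free mice and CDPs from tumor-bearing mice, with 4 samples each, numbered 2 to 5, and each sample is described as coming from 2 mice. Tumor-bearing (PyMT) mice carried orthotopic tumors of PyMT-B6, a cell line from an MMTV-PyMT mammary tumor on the C57/Bl6 background, grown to 1.5 cm in the mammary fat, whereas control (Normal) mice were age-matched and carried no tumor. PyMT-B6 is a single cell line, so the tumor effect is that of this line. MDPs and CDPs were sorted from BM after lineage depletion, which removes most mature cells, and the RNA of each sample was hybridized to its own one-color array.

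Levels below are log2 intensities relative to the 75th percentile of the same array, and changes are tumor-bearing minus tumor-free on the log2 scale. The 4 slides each held 2 tumor-bearing and 2 tumor-free arrays. Both tumor-bearing arrays were of MDPs on slide 1 and of CDPs on slide 4, and only slides 2 and 3 held all 4 groups. Within a progenitor, tumor state and slide are therefore partly mixed. Between 58.8% and 71.5% of probes were well above background, and on slides 1 to 3 this share was lower on both tumor-bearing arrays (58.8% to 60.6%, 64% to 64.2% and 67.2% to 67.9%) than on both tumor-free arrays (63.6% to 64.3%, 65.8% to 66.1% and 68.1% to 69.6%). The part of this difference in the lower levels reported here was not tested. Over probes, Pearson's r between replicates of the same group was 0.904 to 0.977. The number of arrays limits the precision, and the median standard error of an average change was 0.124. Since each sample is a pool of cells, fewer cells of a type and less RNA per cell cannot be told apart.

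Of 27431 probes tested, limma called 473 higher (1.72%) and 1282 lower (4.67%) at an adjusted p under 0.05 and a fold change above 1.5. These probes gave 315 genes higher (1.83%) and 814 lower (4.72%), each gene being represented by the brightest of its probes on average. The share of higher calls depended on the scaling, since 27% of called probes were higher as reported, 45.3% after quantile normalization (621 higher, 750 lower) and 46.4% in the deposited value table (543 higher, 627 lower). Every one of the 1129 called genes had the same sign in both progenitors. They were called on the average of the changes in MDPs and CDPs, so a gene with opposite signs could hardly pass. This agreement is therefore largely set by the selection. In the fit of all arrays with slide removed, 72% of all tested probes had the same sign in both progenitors. Of the 1129 called genes, 315 changed by less than 1.5-fold in MDPs and 122 by less than 1.5-fold in CDPs. Those genes were not counted as moved alike.

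In the same model with the groups kept separate, 45 probes (0.164%) passed in MDPs and 1251 (4.56%) in CDPs. These counts do not show that the response differed, because the difference itself passed for 2 probes (0.00729%), with 1479 at an unadjusted p under 0.05. Both counts also turned on single arrays. Leaving out any of 13 of the 16 arrays took the count in MDPs to between 1 and 26, and in CDPs 285 were called without CDP tumor-free replicate 3, 338 without CDP tumor-bearing replicate 4, and 718 and 816 without CDP tumor-free replicates 4 and 5. Among the 692 genes that moved alike, the change was larger in CDPs for 428 and larger in MDPs for 264. The median rise was 0.92 in MDPs and 1.29 in CDPs, and the median fall was −0.98 in MDPs and −1.05 in CDPs. For 57 of the 692 genes the difference had an unadjusted p under 0.05. The 95% interval of the difference reached 1.08 log2 units to either side for the median gene, so that moderate differences between the progenitors were not detectable with 4 arrays a group.

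**Figure D1:**
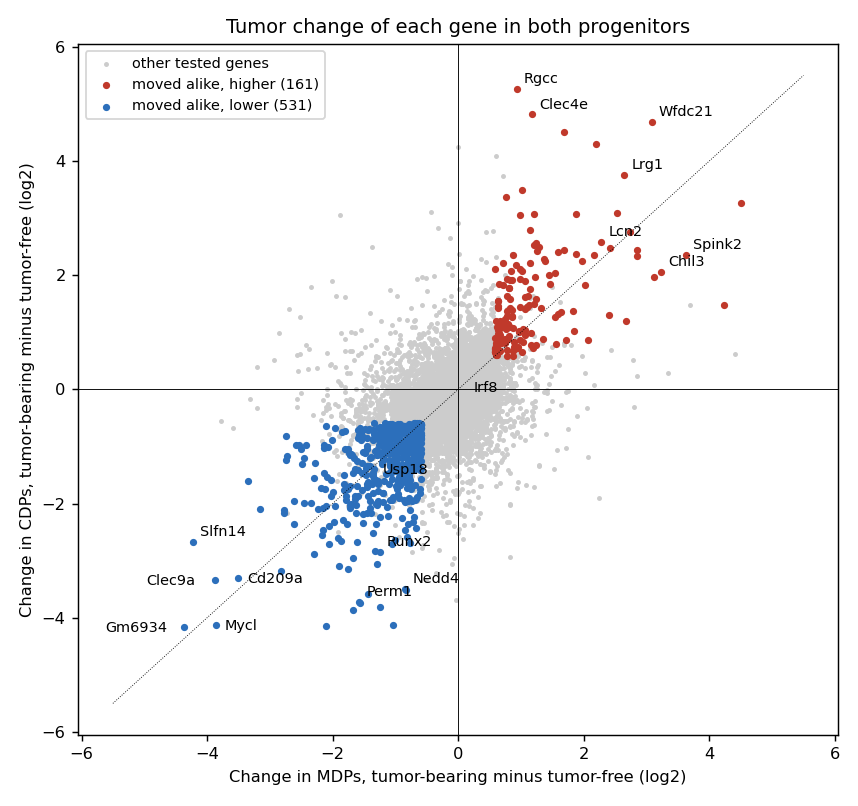
Each point is 1 of 17237 genes, with its log2 change (tumor-bearing minus tumor-free) in MDPs on the horizontal and in CDPs on the vertical axis, and the dotted line marks equal change. The 161 genes that moved alike and were higher (red) and the 531 that were lower (blue) lie in the upper right and lower left by their definition, and Rgcc, Clec4e and Nedd4 stand far from the line.

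The response was also compared between progenitors on separate arrays, with the 8 arrays of each progenitor fitted alone. These separate fits held no slide term, so that their changes mix slide with tumor state. Limma called 55 probes in CDPs alone, and 48 of them (87.3%) changed in the same direction in MDPs, against 53.7% of all tested probes. Of the 26 that rose in CDPs, 25 were also higher in MDPs, with a median change of 1.07 there. Of the 29 that fell, 23 were lower, with a median of −0.82. Since 5 probes passed in MDPs alone, the 100 probes with the smallest p were taken, and 80 of the 100 had the same sign in CDPs. Over all tested probes the changes in the progenitors had Pearson r = 0.162 and Spearman rho = 0.0798 in these separate fits. In the fit of all 16 arrays with slide removed they had r = 0.482 and rho = 0.53, with 72% of probes of the same sign. Probes on the same arrays share the slides.

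Genes that moved alike were dimmer than most. Their tumor-free level had a median of −1.79 for the higher and −2.18 for the lower genes, against −0.98 over all genes, and 49.7% of the lower genes were above background on all 16 arrays, against 72.7% of the higher and 76.8% of all genes. In tumor-free mice, 379 of the 531 lower genes (71.4%) had a higher level in CDPs than in MDPs, against 52.8% of all genes, and 205 were more than 1.5-fold higher in CDPs. Of the 161 higher genes, 65 (40.4%) had the higher level in tumor-free CDPs. These shares use the tumor-free arrays that also chose the genes and are given as a description. For 65 of the 531 lower and 11 of the 161 higher genes, neither group of 1 progenitor was above background on 3 arrays or more, so that the size of the change there is not a measured level difference.

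Other probes of the same genes gave a check that the choice of genes did not use. The 531 lower genes had 122 further tested probes, of which 118 (96.7%) were lower and 67 (54.9%) were called lower. The 161 higher genes had 37 further probes, with 32 (86.5%) higher and 26 (70.3%) called higher. Over all genes, 74.3% of further probes shared the sign of the first probe and 6.59% were called in its direction. The probes of a gene are read on the same arrays and are not independent samples.

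Groups of 4 were fully separate in both progenitors, on the same side, for 147 of the genes that moved alike (64 higher, 83 lower) and for 327 of all genes (1.9%). The median over these 147 genes of each array's difference from the tumor-free mean, counted in the direction of the gene's change, was 0.78, 1.12, 1.27 and 0.68 on the MDP arrays of tumor-bearing replicates 2 to 5 and 1.27, 1.49, 1.61 and 0.92 on the CDP arrays. The order of the replicates was the same in both progenitors, from replicate 5 with the smallest shift to replicate 4 with the largest. The tumor-free arrays lay between −0.1 and 0.11. The genes were chosen on these arrays, so the spread among tumor-bearing arrays is a description.

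Several granule protein genes of the neutrophil lineage rose. Of 16 secondary and tertiary granule genes tested, 5 were called higher, none lower and 11 were not called, with a median change of 0.34 against −0.05 over all genes. For this and the later lists, the shares over all genes were 1.83% called higher and 4.72% called lower. Members of the granule list ranged from −1.1 to 3.88, with 11 positive and 5 negative. Camp, Ngp and Ltf, given with the neutrophil markers below, changed in the negative direction and were not called. Wfdc21, a secreted whey acidic protein family member, had the highest rise with separate groups together with Gm6522 (3.88 each). Its level in MDPs was −2.2, −2.3, −3.11 and −2.6 on tumor-free replicates 2 to 5 and 0.59, 0.84, 0.37 and 0.09 on tumor-bearing replicates. In CDPs it was −2.06, −3.23, −3.61 and −4.59 without tumor and 0.96, 1.88, 1.93 and 0.72 with tumor. The lowest tumor-bearing array of either progenitor lay above the highest tumor-free array, and the average rise was 14.8-fold (SE 0.38 log2 units, limma adjusted p = 0.000701).

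Lcn2 encodes neutrophil gelatinase-associated lipocalin, which binds bacterial siderophores. It stood at 1.24, 0.5, 1.16 and 0.42 in MDPs and 1.29, 0.4, 0.66 and 0.03 in CDPs of tumor-free replicates 2 to 5. With tumor it stood at 2.48, 3.63, 3.28 and 2.6 in MDPs and at 2.92, 3.74, 3.79 and 2.73 in CDPs, so that the groups were apart and replicates 3 and 4 were the highest in both progenitors. The rise of 2.43 (SE 0.22, limma adjusted p = 0.000701) was 4.49-fold in MDPs and 6.5-fold in CDPs, and the difference of 0.31 had a 95% interval from −0.74 to 1.36. The Lcn2 probe lies on chromosome 2, 32240199 to 32240258, and that of Wfdc21 on chromosome 11, 83566028 to 83566087 (mm9).

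Chil3, a chitinase-like protein of granulocytes and activated macrophages, rose by 3.23 in MDPs and 2.06 in CDPs (average 2.65, SE 0.39, limma adjusted p = 0.00262). Tumor-free MDPs held −1.21, −1.15, −0.57 and −2.56 and tumor-bearing MDPs 2.17, 2.51, 1.96 and 0.72, whereas CDPs held 2.92, 0.88, 2.02 and 1.27 without and 3.85, 4.39, 4.01 and 3.16 with tumor. The groups were separate within each progenitor, and replicate 5 was the lowest tumor-bearing array in both. Mmp8, neutrophil collagenase, rose by 1.45 (adjusted p = 0.00192). Hp, which encodes haptoglobin and was named after its values were seen, rose by 0.76 on average (adjusted p = 0.00309), with 0.5 in MDPs, which is under the fold threshold.

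Of 15 genes on the primary granule list, 4 rose and none fell, with a median of 0.44. The list was not limited to granule proteins, and Ms4a3 and Gstm1 among the risen genes encode other proteins. Ms4a3, a membrane protein of granulocyte and monocyte progenitors, rose from a mean of 3.31 to 4.06 in MDPs and from 0.95 to 3.15 in CDPs (average 1.47, SE 0.26, limma adjusted p = 0.00461). Ctsc, the protease that activates granule serine proteases, rose by 1.06 in MDPs and 1.41 in CDPs. Elane, neutrophil elastase, passed on average (0.60) with 0.18 in MDPs and 1.01 in CDPs and was called in 8 of 16 fits that left out 1 array. Gstm1, a glutathione transferase, passed with 0.64, a call lost without CDP tumor-free replicate 3 (0.54) or CDP tumor-bearing replicate 3 (0.56). Mpo changed by 0.22 and Prtn3 by 0.52, and neither was called.

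Markers of mature neutrophils were read beside these genes. Of 18 tested, 5 rose, and Lcn2 and Mmp8 among these belong to the secondary granule list as well. Lrg1, a leucine-rich glycoprotein of neutrophils and plasma, rose by 3.20 (SE 0.39, limma adjusted p = 0.00156), and Trem3, a myeloid receptor, by 1.54. S100a8, a subunit of calprotectin, rose by 2.07 (SE 0.39, adjusted p = 0.00595), with groups that overlapped in MDPs and were apart in CDPs. Among the 13 markers that were not called, Camp changed by −1.10, Ngp by −0.56, Ltf by −0.32, S100a9 by 1.85 (adjusted p = 0.114) and Retnlg by 1.25. Mmp9, Stfa1 and Il1f9 were never above background.

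The summed level of the 22 mature neutrophil markers on the array, as intensity relative to the 75th percentile, ranged from 40.6 to 58.6 in tumor-free and 43.7 to 64.1 in tumor-bearing MDPs. In CDPs it ranged from 38.8 to 62.1 and from 64.6 to 84.2, so that the groups overlapped in MDPs and were apart in CDPs. The part of mature cells in the granule gene changes was not tested.

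Short stretches upstream of the start site are shown for the risen genes in which a motif of a myeloid factor was found. Promoters were taken from RefSeq (GRCm38.p6, 250 bases before to 50 after the start, present for 12910 tested genes) and searched on both strands for TTGCNNAA (C/EBP) and TTCNNNGAA (STAT). Capitals mark the motif, and each window is written along the gene's strand.
Lcn2: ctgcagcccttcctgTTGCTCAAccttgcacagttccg
Clec4e: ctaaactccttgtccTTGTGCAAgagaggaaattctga
Socs3: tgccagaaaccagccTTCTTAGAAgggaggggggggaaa
Chil3: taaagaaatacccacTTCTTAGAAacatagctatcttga
Il1r2: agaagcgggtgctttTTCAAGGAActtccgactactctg
The windows lie at chr2:32387933-32387970 for Lcn2, chr6:123289915-123289952 for Clec4e, chr11:117969497-117969535 for Socs3 and chr3:106167713-106167751 for Chil3 (all minus strand) and at chr1:40085967-40086005 (plus strand) for Il1r2. The C/EBP letters were present in 8.95% of all 12910 promoters and in 19 of the 118 promoters (16.1%) of all higher genes that moved alike. Among the higher genes with separate groups they were present in 11 of the 49 promoters (22.4%). The STAT letters were present in 7.47% of all, in 14 of the 118 (11.9%) and in 7 of the 49 (14.3%). No such match was found in the windows of Lrg1, Pim1, Bcl3 or S100a8. A match is a description of letters and no measurement of binding.

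Genes that STAT3 induces or that feed back on it included 4 risen and 2 fallen of 24 tested, with a median change of 0.33. Pim1, a serine/threonine kinase induced by cytokines, rose in both progenitors to a like degree (1.63 in MDPs, 1.36 in CDPs, SE of the average 0.19, limma adjusted p = 0.00192). Its tumor-free levels were 1.08, 0.7, 0.81 and 0.93 in MDPs and 1.44, 1.38, 1.29 and 1.49 in CDPs. Its tumor-bearing levels were 2.31, 3.2, 2.92 and 1.59 in MDPs and 2.67, 3.15, 3.3 and 1.94 in CDPs, all above every tumor-free array and lowest on replicate 5. The difference between the progenitors was −0.27, with a 95% interval from −1.2 to 0.67.

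Bcl3, an atypical inhibitor of the NF-kappaB family, rose by 1.30 (adjusted p = 0.00433) and Ptpn1, a tyrosine phosphatase of cytokine receptor signaling, by 0.83 (adjusted p = 0.00672). Socs3, the inhibitor of signaling through gp130 and the granulocyte colony-stimulating factor receptor, rose by 0.76 in MDPs and 3.37 in CDPs (average 2.06, limma adjusted p = 0.0114), and its MDP groups overlapped. The fallen members were Tnfaip3, which restrains NF-kappaB (−0.88), and Il10ra, the interleukin-10 receptor (−0.77). Stat3 itself changed by 0.36 and Csf3r, the receptor for granulocyte colony-stimulating factor, by −0.07, and neither was called.

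Of 18 transcription factor genes of granulocytes and monocytes, 3 rose. Id1, which blocks the DNA binding of E proteins, rose by 1.44 in MDPs and 2.01 in CDPs (average 1.72, SE 0.22, limma adjusted p = 0.00185). Its tumor-bearing arrays lay between −1.77 and 0.5 and its tumor-free arrays between −2.91 and −1.33, with an overlap through MDP tumor-bearing replicate 5. Cebpb, the C/EBP member of emergency granulopoiesis, rose by 0.66, a call lost without CDP tumor-free replicate 3 (0.57). Gfi1, a repressor needed for neutrophil formation, passed with 0.98 (adjusted p = 0.0482) but was called in 3 of 16 fits without 1 array and changed by 0.15 in MDPs. Cebpa (0.03), Cebpe (0.18) and Spi1 (0.19) were not called.

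Surface receptors of myeloid cells rose as well. Of 11 myeloid C-type lectins 3 rose, all of the Clec4d, Clec4e and Clec5a set that signals through adaptor chains, and none fell. Clec4e, a receptor for mycobacterial glycolipid, rose from a mean of −2.67 to −1.44 in MDPs and from −6.08 to −1.32 in CDPs, where no tumor-free array was above background and the rise was at least 15.5-fold. The difference of 3.64 had an unadjusted p of 0.000101 by limma and did not pass after adjustment. Clec5a rose by 1.97 and Clec4d by 1.34 on average, the latter with 0.45 in MDPs and so not alike.

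Of 8 genes of the IL-1 family, Il1r2, the decoy receptor, rose by 1.69 in MDPs and 4.50 in CDPs (average 3.10, SE 0.64, limma adjusted p = 0.00891), with overlapping MDP groups, and Il18rap, a chain of the IL-18 receptor, rose by 1.30. Il1b (−0.09) and Il1rn (0.08) were not called. Among 19 Toll-like receptors and co-receptors, Tlr13, which senses bacterial ribosomal RNA, rose by 1.03, and the adaptor Myd88 rose by 0.97 in MDPs and 1.03 in CDPs. Tlr12, which senses profilin, fell by 1.59 (adjusted p = 0.00453). Tlr7 passed as lower (−0.59) in 8 of 16 fits without 1 array, and its other probe changed by 0.41 (adjusted p = 0.672).

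**Figure D2:**
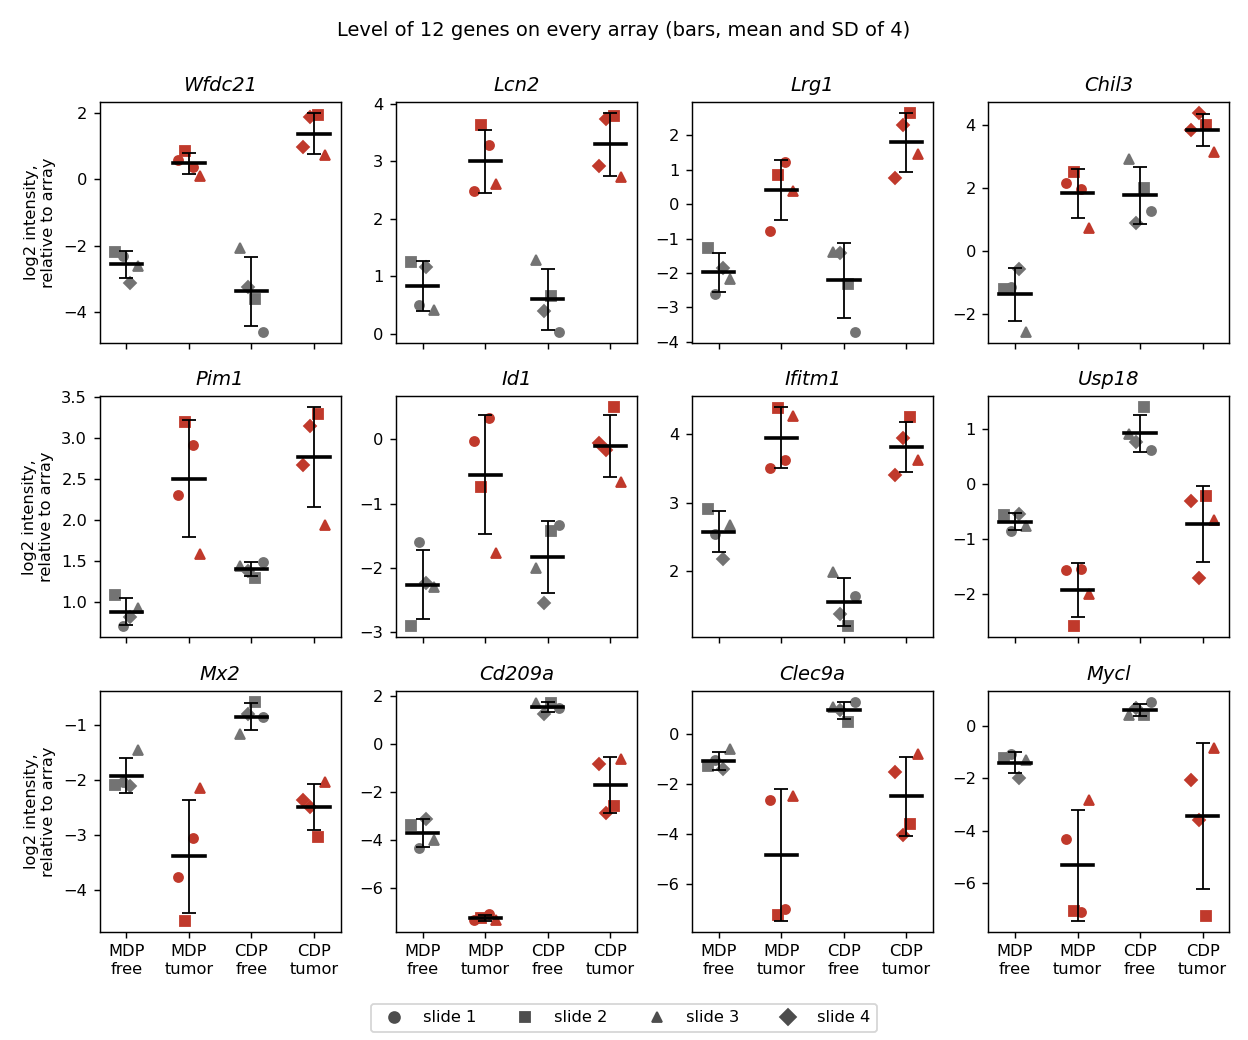
Log2 intensity relative to the 75th percentile of the array (vertical axis) of 12 genes in the 4 groups (horizontal axis), with 1 point per array, the symbol giving its slide, and a bar for the mean and SD of 4 arrays (gray, tumor-free, and red, tumor-bearing). Tumor-bearing means are higher for the first 7 genes and lower for the last 5 in both progenitors, with arrays that overlap for Id1 in MDPs. For Clec9a and Mycl tumor-bearing replicates 3 and 4 lie lowest.

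Several genes of the DC program fell. Of 18 cDC genes 4 fell, none rose and 14 were not called, with a median of −0.10. Clec9a, the receptor for dead cells on cDC1s and their precursors, stood at −1.28, −1.05, −1.42 and −0.6 in tumor-free MDPs and 1.06, 0.95, 0.47 and 1.26 in tumor-free CDPs. With tumor it stood at −2.65, −7.25, −7.02 and −2.51 in MDPs and at −1.54, −4.06, −3.63 and −0.83 in CDPs. Every tumor-bearing array was lower than every tumor-free array of its progenitor, and replicates 3 and 4 fell farthest in both. The average fall was 12.2-fold (−3.61, SE 0.63, limma adjusted p = 0.00458), with −3.88 in MDPs and −3.34 in CDPs and a 95% interval of the difference from −2.57 to 3.64. In MDPs 2 of 4 tumor-bearing arrays were above background, so that the size of the Clec9a fall there and on average is uncertain. Its neighbor Clec1a on chromosome 6, another lectin, 4992 bases from the Clec9a probe, also moved alike and fell by 1.53.

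Mycl, a MYC family factor used by cDCs, fell in the same arrays. Its tumor-free levels were −1.23, −1.07, −1.97 and −1.31 in MDPs and 0.43, 0.69, 0.41 and 0.93 in CDPs. Its tumor-bearing levels were −4.3, −7.06, −7.11 and −2.81 in MDPs and −2.06, −3.59, −7.25 and −0.82 in CDPs, and the change was −3.99 (SE 0.70, limma adjusted p = 0.00458). The groups were apart in both progenitors, with tumor-bearing replicate 5 the nearest to the tumor-free arrays. Of the tumor-bearing arrays, 2 of 4 in MDPs and 3 of 4 in CDPs were above background, so that the size of the fall is uncertain.

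Cd209a, a DC-SIGN lectin of monocyte-derived and conventional DCs, fell by 3.50 in MDPs and 3.30 in CDPs (average −3.40, SE 0.32, limma adjusted p = 0.000701). In MDPs it was below background on every tumor-bearing array, at least 2.84-fold lower. In CDPs it went from 1.71, 1.25, 1.72 and 1.53 to −0.8, −2.85, −2.55 and −0.6, a 9.51-fold fall with separate groups. Its second probe changed by −0.78 in MDPs and −4.96 in CDPs (limma adjusted p of the average 0.0367), so that the probes part on how even the fall was. Of 5 CD209 lectins tested 3 fell, and Cd209d fell by 0.88 in a like manner in both progenitors. Itgax, which encodes CD11c, fell by 2.06 (adjusted p = 0.0177), Irf4 by 1.14 with −0.53 in CDPs, and Zbtb46 by 0.69, a call that held in 11 of 16 fits without 1 array. Zbtb46 changed by −0.5 in MDPs, under the fold threshold, and so did not move alike. The other Zbtb46 probe changed by −0.3 in MDPs and −2.77 in CDPs and did not pass (limma adjusted p of the average 0.0502). In MDPs Irf4 was above background on 2 of 4 tumor-free and 0 of 4 tumor-bearing arrays, and its change within CDPs did not pass (limma adjusted p = 0.427).

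Irf8, the factor that drives cDC1 formation, was high on every array and did not pass (−0.08, SE 0.08, limma adjusted p = 0.504). It ranged from 3.73 to 4.65 on the tumor-free and from 3.63 to 4.54 on the tumor-bearing arrays, fully overlapping. Batf3 (−0.12), Id2 (0.46), Flt3 (−0.44) and Bcl11a (−0.41, adjusted p = 0.0607) were not called either in the average effect. Bcl11a changed by −0.06 in MDPs and by −0.75 in CDPs, where it passed (limma adjusted p = 0.024), and its other probe changed by −0.77 in CDPs. Csf1r, a marker of the sort, changed by −0.17 and was not called. Kit, whose protein defines MDPs and is lower in CDPs, changed by −0.16 in MDPs and −1.31 in CDPs, and its average call (−0.73) was lost without CDP tumor-free replicate 5 (−0.66) or CDP tumor-bearing replicate 4 (−0.65).

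Of 16 pDC genes 6 fell and none rose, with a median of −0.52. Runx2, which pDCs need to leave the BM, fell by 1.25 in MDPs and 2.84 in CDPs by its brightest probe (average −2.05, SE 0.32, limma adjusted p = 0.0033), with separate groups, whereas its other probe changed by −0.69 (adjusted p = 0.102). Irf7, the factor that amplifies interferon production, fell by 2.14 and 1.46 (average −1.80, adjusted p = 0.0164). In MDPs 2 of 4 tumor-bearing arrays were above background for Irf7, so that the size of its fall there and on average is uncertain. Cd300c, an activating receptor, fell by 0.87 and 1.94. Spib, an ETS factor of pDCs, changed by −0.77 in MDPs, where 2 of 4 tumor-free and 0 of 4 tumor-bearing arrays were above background, and by −2.69 in CDPs, where 4 and 2 were. Ly6d was called in 4 of 16 fits without 1 array. Siglech (0.11), Tcf4 (−0.46) and Bst2 (−0.37) were not called.

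Among the lists described here, the interferon-stimulated genes held the most falls that moved alike. Of 34 tested, 14 fell and all 14 moved alike, 1 rose, and 19 were not called, with a median change of −0.66 against −0.05 over all genes. In all, 31 of the 34 were negative. Leaving out any array gave 11 to 15 lower genes, and leaving out slide 2 or slide 4 gave 8 and 9. Irf7 belongs to the pDC list as well.

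Usp18, which removes ISG15 from proteins and restrains the interferon receptor, showed separate groups. In MDPs it went from −0.57, −0.86, −0.55 and −0.77 to −1.57, −2.59, −1.54 and −2.01, and in CDPs from 0.91, 0.76, 1.39 and 0.62 to −0.32, −1.72, −0.22 and −0.66. Replicate 3 was the lowest tumor-bearing array in both progenitors. The fall was 2.72-fold (−1.45, SE 0.23, limma adjusted p = 0.00325), and the difference of −0.26 had a 95% interval from −1.38 to 0.85.

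Mx2, an antiviral GTPase, fell by 1.45 in MDPs and 1.65 in CDPs (adjusted p = 0.00308) with separate groups. Ifit3, which binds viral RNA partners, had the largest fitted fall (−2.76, adjusted p = 0.00313), but it was dim on most arrays. In MDPs 1 of 4 tumor-free and 0 of 4 tumor-bearing arrays were above background, and in CDPs 4 and 1 were, with means of −1.65 and −5.89, so that the size of its fall is uncertain in both. Further falls, named after their values were seen, were those of Mx1 (−1.32), Oasl2 (−1.22), Oas3 (−1.19), Ifi27l2a (−1.13), Ifi44 (−1.04), Xaf1 (−0.81), Stat2 (−0.73), Isg15 (−0.70) and Trim30a (−0.61). Stat2 encodes a part of the factor that interferon activates. Ifitm1, which blocks viral entry, was the exception and rose by 1.36 in MDPs and 2.28 in CDPs (average 1.82, SE 0.20, limma adjusted p = 0.00104), and its second probe rose by 1.86. Ifnar1 (−0.26) and Ifnar2 (−0.17), the receptor chains, were not called.

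**Figure D3:**
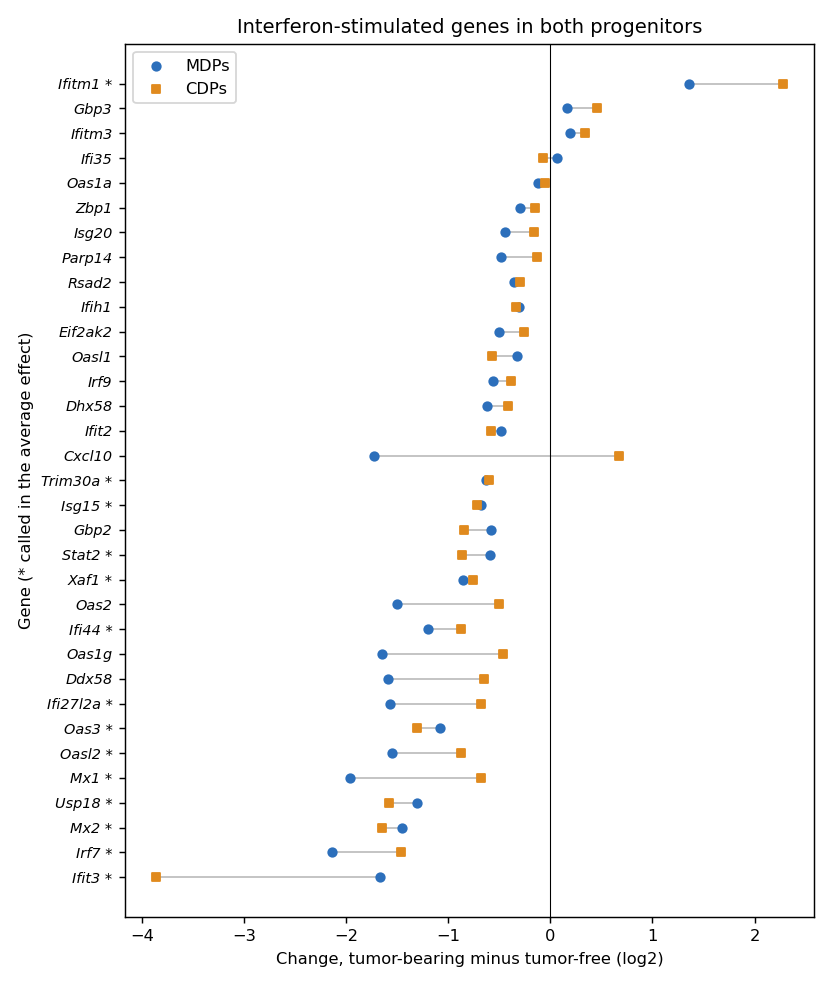
Log2 change (tumor-bearing minus tumor-free, horizontal axis) of 33 of the 34 interferon-stimulated genes tested (vertical axis, sorted by the average change) in MDPs (blue circles) and CDPs (orange squares), with an asterisk on the genes called in the average effect. Most points of both progenitors lie below 0, Ifit3 is lowest in CDPs, and Ifitm1 alone is called higher.

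The interferon-stimulated response element, searched on both strands as GAAA and again GAAA with any 2 bases between them, was read in the same RefSeq promoters, and its matches in 4 of the fallen genes are in capitals below, to show where the element lies. Overlapping matches, and in Stat2 an overlapping match to a joint ETS and IRF element (GGAA, any 2 bases, GAAA), are joined.
Ifit3: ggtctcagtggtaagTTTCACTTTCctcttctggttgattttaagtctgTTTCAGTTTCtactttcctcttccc
Isg15: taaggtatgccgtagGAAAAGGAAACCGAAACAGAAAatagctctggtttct
Oas3: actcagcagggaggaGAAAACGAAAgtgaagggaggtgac
Stat2: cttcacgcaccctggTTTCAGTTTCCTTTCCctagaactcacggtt
The windows lie at chr19:34583358-34583431 (plus strand) for Ifit3, chr4:156200860-156200911 (minus strand) for Isg15, chr5:120777710-120777749 (minus strand) for Oas3 and chr10:128270261-128270306 (plus strand) for Stat2. The element was present in 3.32% of all promoters, in 5 of 9 fallen interferon-stimulated genes with a promoter entry (55.6%) and in 10 of the 16 that did not fall (62.5%). Among the 354 promoters of all lower genes that moved alike it was present in 21 (5.93%). Among the 62 promoters of all lower genes with separate groups it was present in 8 (12.9%), and interferon-stimulated genes are among these 62.

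Some markers of erythroid cells and megakaryocytes fell in the same comparison. Of 15 erythroid markers 4 fell, all alike, with a median of −0.72. They were Klf1, the erythroid master factor (−1.79, adjusted p = 0.0212), the globin genes Hbb-b1 (−1.68) and Hba-a1 (−1.17), and Car2 (−0.86). In CDPs Klf1 was above background on 1 of 4 tumor-free and 0 of 4 tumor-bearing arrays, so that the size of its fall was not measured there. The probes of Hba-a1 and the nearly identical Hba-a2, 414 bases apart in the files, may read each other's transcript. The summed level of the 18 erythroid markers ranged from 7.23 to 11.1 in tumor-free and 6.2 to 8.76 in tumor-bearing MDPs, and from 6.9 to 16.6 and 5.08 to 7.99 in CDPs. Epb42 was never above background.

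Of 16 megakaryocyte markers 4 fell, with a median of −0.47. Itgb3, the beta chain of the platelet fibrinogen receptor, fell by 1.45 in MDPs and 1.71 in CDPs by its brightest probe (adjusted p = 0.00345) and by 0.74 and 0.97 by its other probe. Plek, a substrate of protein kinase C in platelets and leukocytes, fell by 1.27 (adjusted p = 0.00262). Itga2b, the alpha chain, fell by 0.87, a call that held in 9 of 16 fits without 1 array. The summed level of these markers was 6.63 to 9.06 in tumor-free and 4.55 to 6.47 in tumor-bearing MDPs, and 9.55 to 17.2 and 4.98 to 8.8 in CDPs, apart in both progenitors. The part of such cells or their RNA in the shared falls was not tested.

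Of 24 genes of stem and early progenitor cells, 2 rose and 5 fell, against 1.83% called higher and 4.72% called lower over all genes. Spink2, a protease inhibitor of early progenitors, rose by 3.63 in MDPs and 2.36 in CDPs (average 2.99, SE 0.44, limma adjusted p = 0.0027), from −7.32, −4.47, −5.69 and −7.32 to −2.62, −1.57, −3.41 and −2.81 in MDPs. Prom1, which encodes CD133, rose by 2.13. In CDPs 2 of 4 tumor-free arrays were above background for Prom1 and its groups overlapped, so that the size of the rise is uncertain there. The Prom1 call was lost without slide 1, slide 2 or slide 4. Erg, an ETS factor of stem cells, passed as lower (−1.93) with −0.52 in MDPs, and its call was lost without any of CDP tumor-free replicates 3, 4 and 5 and CDP tumor-bearing replicate 4 (−1.87 to −1.66). Sox4 fell alike by 0.73 and Satb1 fell by 0.84, the latter by less than the fold threshold in MDPs, while Angpt1 held in 9 of 16 such fits.

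Of 16 B cell and early lymphoid markers 3 fell, with Cd72 (−0.75, adjusted p = 0.00273) apart in both progenitors. Over all genes, 4.72% were called lower. Of 20 T and NK cell markers 2 fell, Klrd1, an NK receptor chain (−3.12, adjusted p = 0.00304), and Cd96 (−2.59), whose call held in 7 of 16 fits without 1 array. Klrd1 was above background on 1 of 4 tumor-free and 0 of 4 tumor-bearing arrays in MDPs and on 4 and 1 in CDPs. None of 6 mast cell and basophil markers and none of 15 mammary tumor cell markers tested was called, with changes of −0.30 to 0.77 and −0.51 to 0.17. The mammary markers summed to 5.66 at most, and Cdh1, Cldn3, Wap, Csn2, Elf5 and Elf3 were never above background.

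Several groups had few or no calls. None of 19 genes of MHC class I peptide loading was called (median −0.04), and of 16 MHC class II genes H2-Ob, a modulator of peptide loading, fell (−1.22, adjusted p = 0.0125, median −0.32). None of 27 glycolysis and hypoxia genes (median 0.20) and none of 6 NADPH oxidase subunits (median 0.14) was called. Of 34 genes of DNA replication and mitosis Ccnd1, cyclin D1, fell by 1.09, and the other members lay between −0.33 and 0.55. Of 48 histone and DNA modifying enzymes 4 fell, against 4.72% of all genes, and Hdac9 (−1.01) and Kdm5b (−2.52) among these moved alike. The further probes of Kdm5b changed by −0.58 (adjusted p = 0.0376) and −1.40 (adjusted p = 0.019) and that of Hdac9 by −1.11 (adjusted p = 0.101).

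Among other groups, Bcl2, the survival factor, fell by 0.61 in MDPs and 1.06 in CDPs (average −0.84, SE 0.11, limma adjusted p = 0.00199). Its tumor-free arrays lay between 2.39 and 3.0 and its tumor-bearing arrays between 1.39 and 2.55, apart within each progenitor. Of 14 chemokine receptors, Cx3cr1, the fractalkine receptor of MDPs and monocytes, fell by 1.18 (adjusted p = 0.00852) and all 3 of its probes were called. Of 25 monocyte and macrophage genes 2 rose (Fcgr3 and Fn1) and 3 fell (Cd163, Cx3cr1 and Marco), with a median of 0.04. Over all genes, 1.83% were called higher and 4.72% lower. The call of Fcgr3 (0.62) was lost without CDP tumor-free replicate 3 (0.51) or CDP tumor-bearing replicate 2 (0.56), and those of Fn1 and Marco held in 6 and 9 of 16 fits without 1 array.

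**Figure D4:**
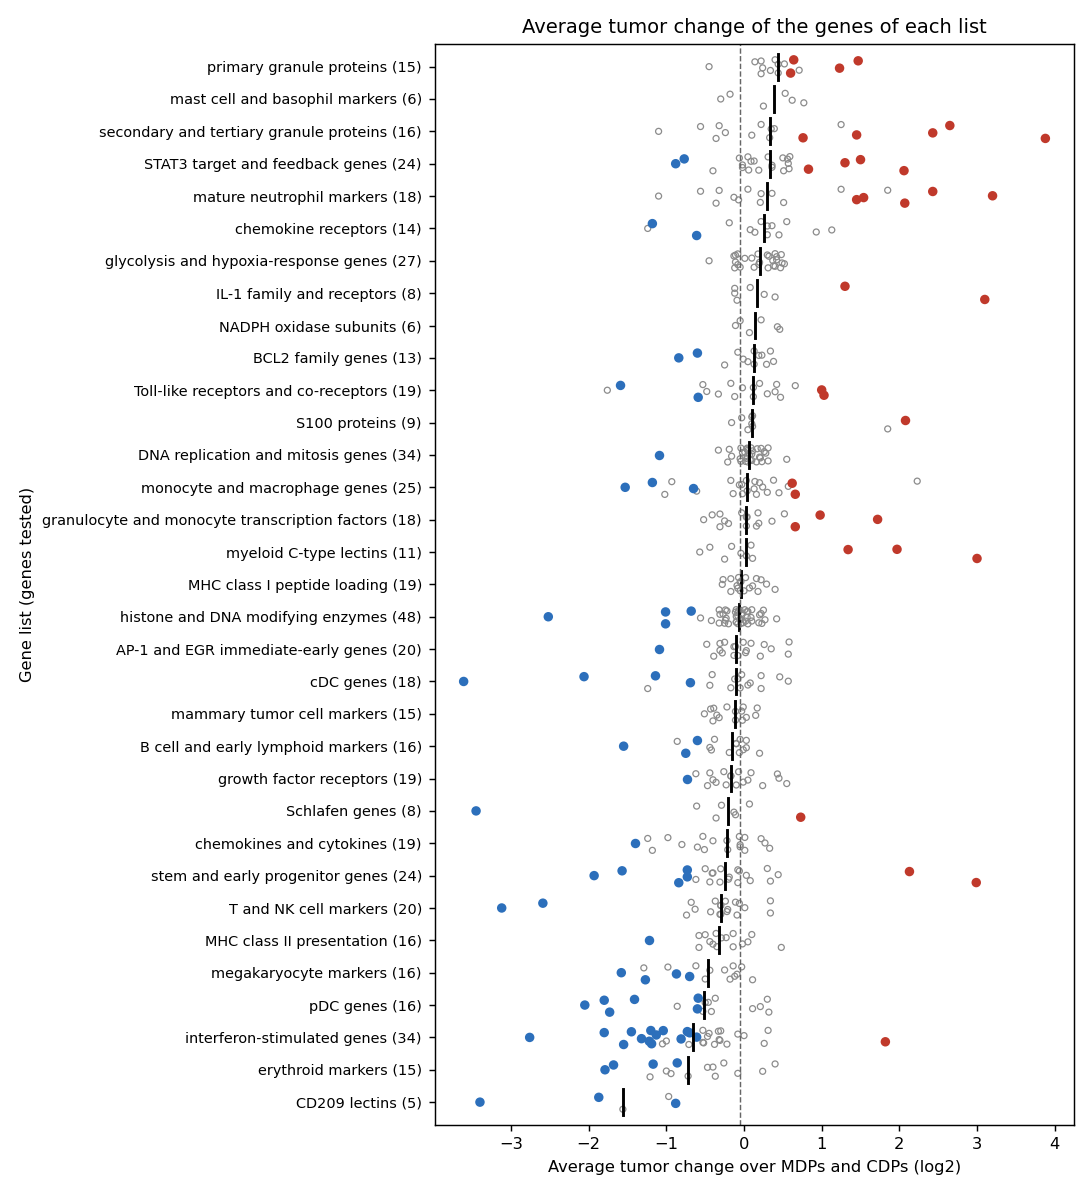
Average log2 change over MDPs and CDPs (horizontal axis) of the tested genes of each list (vertical axis, with the number tested), filled red where called higher, filled blue where called lower and open where not called. Black bars are list medians and the dashed line is the median of all genes (−0.05), from which the CD209, erythroid and interferon-stimulated lists lie lowest, with medians of −1.56, −0.72 and −0.66.

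The largest shared changes included genes of no list. By size among those with separate groups in both progenitors, the risen genes were Gm6522, Wfdc21, BB031773, Lrg1, Rgcc, Clec4e, Spink2, Chil3, Camkk1, Selp, Lcn2 and Abi3. Gm6522, a predicted gene at 106100673 to 106100732 on chromosome 3, where the Chil3 probe lies at 105950485 to 105950544, was below background in all tumor-free MDPs and rose at least 7.21-fold there and 8.88-fold in CDPs. Selp, P-selectin, rose by 2.48 (adjusted p = 0.00198), and Camkk1, a calcium-dependent kinase, by 2.60. Of the tumor-free MDP arrays, 3 of 4 were above background for Camkk1. Replicate 4 was at −7.61, against −3.93, −3.01 and −2.97 on the others, so that the size of the Camkk1 rise is uncertain. The Camkk1 call was lost without slide 1 or slide 2. Abi3 rose by 2.11, and its neighbor Gngt2, 13019 bases away on chromosome 11, by 1.37.

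Rgcc, a regulator of the cell cycle, rose by 0.93 in MDPs and 5.27 in CDPs. Its average call (3.10, limma adjusted p = 0.0263) was lost without any of MDP tumor-free replicate 2, CDP tumor-free replicate 5, CDP tumor-bearing replicate 3 and CDP tumor-bearing replicate 4 (2.64 to 3.08, adjusted p 0.0502 to 0.0587).

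The fallen genes by the same rule were Gm6934, Mycl, Clec9a, Slfn14, Cd209a, Perm1, Upb1, Ngfr, Epha2, Carmil1, Nedd4 and Runx2. Gm6934, a predicted gene, fell from −2.48, −1.69, −4.21 and −2.55 to −5.21, −7.02, −6.94 and −7.2 in MDPs and from −3.04, −1.96, −2.26 and −0.85 to −7.37, −7.39, −7.26 and −4.77 in CDPs (average −4.26, SE 0.39, limma adjusted p = 0.000701). It was below background on all tumor-bearing MDP arrays, at least 5.5-fold lower. Slfn14, a ribosome-associated endoribonuclease of erythroid cells and platelets, was at least 3.44-fold lower in MDPs, and in CDPs, where 2 of 4 tumor-bearing arrays were above background, its mean went from −2.34 to −5.31.

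Carmil1, an actin capping regulator, fell by 2.05 in MDPs and 2.39 in CDPs (SE of the average 0.24, limma adjusted p = 0.00104), and its second probe fell by 2.27. Upb1, an enzyme of pyrimidine breakdown, fell by 2.44. Perm1 fell by 2.65, and Isg15 lies 21433 bases from it on chromosome 4. The receptors Ngfr and Epha2 fell by 2.38 and 2.36, near background in part of the arrays. Nedd4, a ubiquitin ligase, fell by 0.84 in MDPs and 3.49 in CDPs by its brightest probe (unadjusted p of the difference 1.43e-05), whereas its other probe fell by 1.96 and 2.32, so that the probes part on the size in each progenitor.

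**Figure D5:**
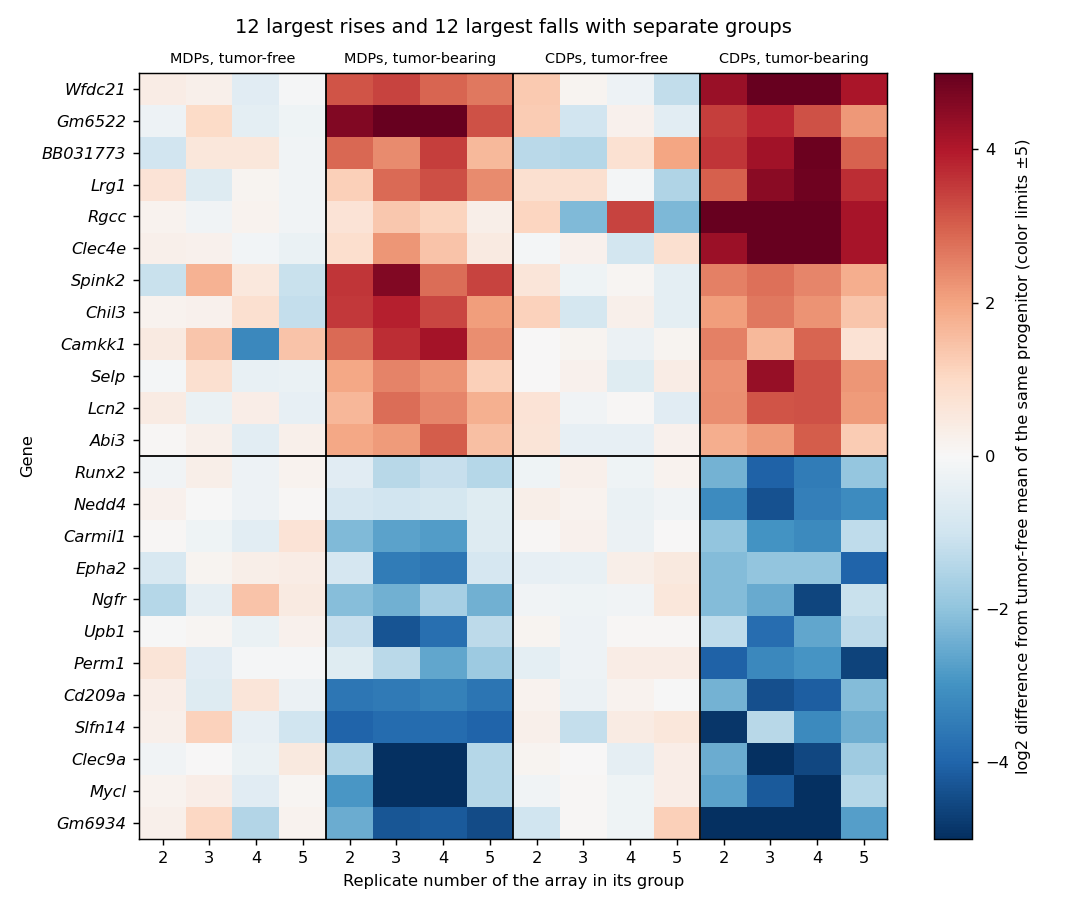
Log2 difference of each of 16 arrays (columns, by group and replicate number) from the tumor-free mean of its progenitor for the 12 largest rises and 12 largest falls among genes that moved alike with separate groups (rows), with red above and blue below 0. All tumor-bearing columns carry the direction of the row because the genes were chosen for it, while the depth of color differs between replicates, as for Clec9a and Mycl.

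Genes just inside and just outside the fold threshold within a progenitor differed little. Idh3a (0.585 in CDPs), Mblac1 and Twf1 (0.586 in MDPs) were counted as moved alike, and Dph3 (0.585) and 1700028N14Rik (−0.585) in CDPs and Rbm4b (−0.584) in MDPs were not. Vcan, the proteoglycan versican, and Cd209e, a DC-SIGN lectin, passed the test of the difference between the progenitors. Both were below background on all 8 MDP arrays, so that no change could be measured there. In CDPs Vcan rose at least 7.6-fold from a level below background, and Cd209e fell at least 3.26-fold to one.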

How the data were processed

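Arrays were one-color (Cy5, 16 samples). For each, the authors deposited Agilent Feature Extraction 11.5.1.1 output, in which the processed signal is an intensity that was background-subtracted and detrended within the array but not scaled across arrays. Mean spot intensity, median background intensity and quality flags stand beside it. A further deposited table gave log2 values of 26793 probes. It matched quantile-normalized log2 intensities (each of 16 columns nearest to its own array, column medians 10.2 to 10.3), and the rule that selected its probes is not stated. The submitters' processing notes name limma. Probe positions are those of the array files (mm9), and exons or UTRs were not assigned.

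Control spots and outlier spots (182 to 289 per array) were removed. The 75th percentile of each array was subtracted from its log2 intensities, and spots of the same probe were averaged (39429 probes, 0 saturated). The 27431 probes that exceeded background in 3 or more of the 4 arrays of any group were tested. Symbols came from the array files and were updated through RefSeq (28380 probes matched, 1429 with another symbol). Groups follow the sample titles. R 4.3.3 was used with limma (3.58.1) and data.table (1.17.8) to fit tumor state, progenitor and slide (additive), and the 4 group means plus slide for the effects within progenitors. A call required a fold change above 1.5 together with an FDR (Benjamini-Hochberg) under 0.05, the thresholds of the study's methods. A fold given as "at least" sets the bright group's mean against a floor in each dim array, namely the higher of the probe's signal there and the dimmest signal that the array measured well above background. For single genes, tumor labels were also exchanged within each progenitor (exact two-sided permutation test, 4900 relabelings, smallest p 0.000408), a value reached by every gene with separate groups. Whether replicate numbers mark shared experiments is not stated, and p-values measure the spread between samples. The fits were tested on simulated data.

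Members, lists and tests were chosen with earlier results of these data known. Named are the 12 largest rises and falls that moved alike with separate groups, at most 4 called genes per list and direction, genes the study names or assayed, the sort markers, and genes called in the test of the difference. Other names were chosen after their values were seen. Alternative settings covered background correction (normexp, offset 50), quantile normalization, median scaling, other filters, the value table, slide and replicate terms, other thresholds, the methods' t-test, and leaving out each array or slide. Some genes are not reported here. Figures were drawn with Python.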

Additional observations from a re-analysis of the deposited data

Results flagged for a closer look

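Of the named genes, Vcan and Cd209e passed limma's test of the difference between progenitors, with changes in CDPs minus changes in MDPs of 4.43 and -3.65 on the log2 scale, and neither was counted as moved alike. Both were below background on all 8 MDP arrays.

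In 26 of 452 groups of 4 arrays examined over the named genes (5.75%), 1 array lay far from the other 3, where chance gives about 1 in 20. These 26 values came from 13 arrays, with the most, 5, from CDP_PyMT_5. All levels that follow are log2 intensities relative to the 75th percentile of the array, each set beside the range of the other 3 arrays of its group. Among the genes of granulocytes and of their regulation, Il1r2 was at -0.30 in MDP_PyMT_3 (others -2.08 to -1.83) and Bcl3 at -2.02 in MDP_Normal_4 (-1.90 to -1.88). Gfi1 was at -2.89 in CDP_PyMT_5 (-1.20 to -0.96), and Cebpb at 2.40 in MDP_Normal_3 (1.83 to 1.89). Gstm1 was at 3.40 in CDP_PyMT_3 (2.80 to 2.88), and Spi1 at 3.77 in CDP_Normal_5 (4.06 to 4.07). Among the genes of DCs and antigen presentation, Batf3 was at -1.74 in CDP_PyMT_5 (-2.18 to -2.13) and Tap2 at -0.93 in CDP_Normal_5 (-1.87 to -1.73). H2-Ob was at -3.14 in CDP_PyMT_4 (-1.48 to -1.25), Flt3 at 0.40 in MDP_PyMT_4 (1.40 to 1.58), and Tlr12 at -0.84 in MDP_Normal_4 (0.02 to 0.15).

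Of the interferon-stimulated genes, Mx2 was at -1.44 in MDP_Normal_5 (-2.10 to -2.03) and Ifit3 at -6.47 in MDP_PyMT_5 (-7.41 to -7.26). Of the lymphoid genes, Ly6d was at -2.75 in MDP_Normal_3 (-1.10 to -0.98), Satb1 at 0.23 in CDP_PyMT_5 (-1.21 to -0.98), Cd96 at -3.82 in CDP_PyMT_2 (-7.55 to -7.28) and Klrd1 at -0.55 in CDP_Normal_5 (-2.26 to -2.17). Of the remaining genes, Prom1 was at -0.10 in MDP_PyMT_4 (0.60 to 0.70), Bbc3 at -0.93 in MDP_Normal_3 (0.52 to 0.66) and Hdac9 at -1.55 in MDP_Normal_5 (-2.06 to -2.02). Klf1 was at -6.23 in MDP_PyMT_5 (-4.19 to -3.90), Epha2 at -5.82 in CDP_PyMT_5 (-4.01 to -3.80), Ngfr at -1.10 in CDP_Normal_5 (-1.89 to -1.87) and Upb1 at 2.41 in CDP_Normal_3 (2.72 to 2.78). Gm6934 was at -5.21 in MDP_PyMT_2 (-7.20 to -6.94) and at -4.77 in CDP_PyMT_5 (-7.39 to -7.26).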

How the results depend on the processing

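The 97 named probes that were called kept their sign in every fit, and of all 1755 called probes 1 changed sign, under normexp correction, where it was not called, but the number of calls depended on the normalization and on the slide term. The reported counts were 473 probes called higher and 1282 lower for the average effect, 247 and 856 that moved alike, 45 within MDPs, 1251 within CDPs, 2 in the test of the difference and 14 interferon-stimulated genes called lower. Normexp correction gave 310 and 804, with 139 and 430 alike. Quantile normalization gave 750 lower, 490 alike and lower, 1 within MDPs and 0 in the test of the difference. Probes above background on all 16 arrays gave 790 lower and 444 alike and lower, and the value table gave 627 and 419. Without a slide term the counts were 266 and 434, with 332 alike and lower, 17 within MDPs, 491 within CDPs, 4 in the test of the difference and 8 interferon-stimulated genes. Leaving out slide 1 gave 681 lower and 471 alike and lower. Leaving out slide 2 gave 246 and 453, with 144 and 333 alike and 8 interferon-stimulated genes. Leaving out slide 4 gave 250 and 548, with 427 alike and lower and 9 interferon-stimulated genes. Slides 2 and 3 alone, a setting added after the data were seen, gave 0 and 2, with 0 and 2 alike, 0 interferon-stimulated genes and 0 of the 97 named probes. The cause of these moves was not tested, apart from the fewer arrays or probes that some settings hold.

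Leaving out each of the 16 arrays in turn gave 335 to 540 higher and 896 to 1390 lower, 194 to 290 and 593 to 923 alike, 1 to 47 within MDPs, 285 to 1320 within CDPs, 0 to 5 in the test of the difference and 11 to 15 interferon-stimulated genes. Of the named probes, 76 were called in all 16 of these fits. Of thresholds and tests, an FDR under 0.05 with no fold threshold gave 2465 and 2699, an FDR under 0.01 gave 278 and 422, and a 2-fold change gave 158 and 511. The methods' t-test gave 393 and 1120 at an unadjusted p under 0.05 and 1.5-fold, and 73 and 97 after Benjamini-Hochberg adjustment, as the study's threshold requires, while 1 probe per gene gave 315 and 819. With no fold threshold within progenitors 471 probes were alike and higher, and groups without overlap in either progenitor left 88 and 130. Of the 100 probes with the smallest p in MDPs, 80% as reported and 88% after quantile normalization had the same sign in CDPs. With slide removed in the fit of all arrays, the share was 88.9% of the 45 probes called in MDPs.

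The deviations of samples with the same replicate number correlated at r from -0.695 to 0.481 over probes, with 8 of 24 pairs over 0.1, and 4 of 16 samples correlated best with their own number. The deviations were not adjusted for slide, which accounted for 93.9% of the first principal component, itself 49.4% of the variance. The check therefore cannot decide whether the numbers pair the samples. The reported fit did not pair them, although the tumor-bearing replicates had the same order of shift in both progenitors. If samples of the same number shared mice, its p-values would count these as separate samples. A replicate block with slide gave 456 and 1332, and a replicate block without slide gave 230 and 390, with 159 and 316 alike and 8 interferon-stimulated genes.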
